A study of Drosophila melanogaster with 3 samples.

Results

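The regions described here are Snoo-eGFP binding peaks whose summit lay beside a protein-coding start. The peak interval around the summit could still reach over the start. A peak belonged to them when its summit was more than 150 bp and at most 1000 bp from the nearest annotated start of a protein-coding gene, and when it did not lie within 1000 bp of both starts of a divergent gene pair. Of 6633 reproducible peaks, 1457 met this rule, or 22.0%. In 1000 of them the summit was upstream of the start, outside the transcript that begins there, and in 457 it was downstream, inside the transcribed side. The rule used only the position of the summit and of the start, so the number on each side, the signal, the sequence and the replicates were free to vary. Another 1621 peaks had their summit within 150 bp of a start, 817 of them at divergent pairs and 804 not. In the same distance range, 187 lay at divergent pairs and were left out, and 3368 were farther than 1000 bp from any start. Here, a peak at a divergent pair is one whose summit lay within 1000 bp of both its starts. Peaks beside a start of a pair but more than 1000 bp from the partner start were kept, as at Mhcl and Akt.

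Snoo is the Drosophila member of the Ski/Sno family of corepressors. These proteins do not read DNA on their own in the way a classical transcription factor does but are brought to it by partners, among them the Smad proteins that carry TGF-beta and BMP signals into the nucleus. The sequence next to a start is where many such partners bind: the core promoter itself positions the polymerase, while the flanks on either side hold proximal regulatory elements, upstream of the gene or in its first intron and 5' untranslated region.

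The series measured binding by chromatin immunoprecipitation and sequencing (ChIP-seq) with an anti-GFP antibody in whole pupae of pooled sex and unknown age. All 3 samples, the biological replicates labelled 3, 5 and 6, came from 1 group: a snoo-MiMIC fly line in which an eGFP exon in an intron of the snoo gene makes a Snoo-eGFP fusion protein. Chromatin was sheared by sonication to a labelled size range of 200-800. No wild-type or mock sample was analysed here, the whole animal was used so that its cell types cannot be told apart, and the peak lists carry no read counts, so the sequencing depth behind each peak is unknown.

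The sequences printed here show what the strongest flanking sites look like. They are the 3 upstream and the 3 downstream peaks with the highest signal among those whose window could be shown, each 100 bp to either side of the summit on the plus strand of the Release 6 (dm6) assembly from RefSeq, and capitals mark matches to the motifs searched. The upstream windows lay at chr3R:11760957-11761157 beside Lk6, at chr3R:28326489-28326689 beside larp and at chr3R:23669752-23669952 beside CG31145. The downstream windows lay at chr2L:3302085-3302285 in CG9663, at chrX:9579188-9579388 in LPCAT and at chr3L:9509144-9509344 in CG3408. The CG31145 window was intergenic and the other 5 were intronic at the summit. The Lk6 and larp summits, although upstream of the nearest start, also lay within the gene named. All 6 genes lie on the minus strand, so the printed sequence runs against the direction of transcription.
Lk6 upstream: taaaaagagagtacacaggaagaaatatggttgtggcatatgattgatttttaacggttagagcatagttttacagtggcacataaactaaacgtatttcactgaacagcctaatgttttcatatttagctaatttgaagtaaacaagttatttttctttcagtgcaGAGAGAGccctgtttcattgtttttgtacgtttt
larp upstream: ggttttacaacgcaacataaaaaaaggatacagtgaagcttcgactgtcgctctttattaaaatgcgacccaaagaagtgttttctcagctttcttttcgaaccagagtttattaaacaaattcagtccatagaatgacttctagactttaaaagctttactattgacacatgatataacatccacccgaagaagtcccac
CG31145 upstream: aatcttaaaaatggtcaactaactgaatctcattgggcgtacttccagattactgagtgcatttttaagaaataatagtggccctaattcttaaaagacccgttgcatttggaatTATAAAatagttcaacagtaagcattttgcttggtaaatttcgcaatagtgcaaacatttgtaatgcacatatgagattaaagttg
CG9663 downstream: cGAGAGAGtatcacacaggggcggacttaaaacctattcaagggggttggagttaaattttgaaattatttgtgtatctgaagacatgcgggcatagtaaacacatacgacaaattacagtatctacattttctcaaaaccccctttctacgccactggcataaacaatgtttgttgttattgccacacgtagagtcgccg
LPCAT downstream: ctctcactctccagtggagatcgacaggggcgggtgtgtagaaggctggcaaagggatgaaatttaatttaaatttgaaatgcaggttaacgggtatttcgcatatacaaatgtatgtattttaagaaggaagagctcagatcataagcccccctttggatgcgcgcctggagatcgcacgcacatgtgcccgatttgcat
CG3408 downstream: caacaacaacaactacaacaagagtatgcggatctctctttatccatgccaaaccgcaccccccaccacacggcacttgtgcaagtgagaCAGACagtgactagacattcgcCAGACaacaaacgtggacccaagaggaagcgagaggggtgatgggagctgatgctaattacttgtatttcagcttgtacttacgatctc
The GAGA motif, a run of alternating G and A bound by GAGA factor, occurred once in the Lk6 and once in the CG9663 window. The CG31145 window held a TATAAA match, the CG3408 window held 2 CAGAC matches of the kind that Smad proteins bind, and the larp and LPCAT windows held none of the 16 motifs. The GC content was 32.3%, 36.3% and 32.3% in the upstream windows and 41.3%, 46.3% and 48.8% in the downstream windows, in the order printed.

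Upstream flanks held more than double the peaks of downstream flanks per base. The rule covered 8.62 Mb upstream and 10.7 Mb downstream, which gave 116 upstream summits per Mb and 42.9 downstream summits per Mb, a ratio of 2.71. To see whether this held in each replicate, the strongest 6633 candidate regions of each replicate's own list were put through the same rule. Replicate 3 had 966 upstream and 445 downstream summits, replicate 5 had 969 and 483, and replicate 6 had 1076 upstream and 461 downstream. Upstream summits thus made up 68.5%, 66.7% and 70.0% of the flanking summits in replicates 3, 5 and 6, a mean of 68.4 ± 1.64% (SD, n = 3), against 68.6% in the reproducible list (exact 95% interval 66.2 to 71.0, counting error only). The density ratio was 2.68, 2.48 and 2.89 in the same replicates, with a mean of 2.68 ± 0.203 (SD, n = 3). All 3 replicates lay above a ratio of 1, and an exact two-sided sign-flip test gave p = 0.25, the smallest value that 3 replicates allow. The labels call the replicates biological. With all 3 on the same side the test returns 0.25 whatever their spread, so it reflects only their shared direction.

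The size of the ratio depended on which sequence was counted. Coding sequence made up 5.05 Mb of the downstream flank and 1.11 Mb of the upstream flank and held almost no summits. With coding sequence left out, the densities were 133 upstream and 79.1 downstream summits per Mb, a ratio of 1.68, and the replicates averaged 1.67 ± 0.120 (SD, n = 3; exact p = 0.25). Within introns alone the densities were 191 upstream and 93.7 downstream summits per Mb, a ratio of 2.04 and a replicate mean of 2.05 ± 0.0525 (SD, n = 3; exact p = 0.25). When each gene kept only its outermost start, the ratio was 1.78, and when the range stopped at 500 bp it was 4.49. Upstream density was higher than downstream density under each of these 4 settings.

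The upstream excess was concentrated near the start. Between 150 and 300 bp the densities were 250 upstream and 37.5 downstream summits per Mb, and between 300 and 500 bp they were 129 and 43.1. From 500 to 750 bp they were 67.8 upstream and 42.0 downstream, and from 750 to 1000 bp the sides were close, at 50.2 and 46.6 per Mb. The upstream side therefore fell away with distance while the downstream side was nearly flat. In the 3 replicates the nearest upstream class had 244, 247 and 267 summits per Mb and the farthest upstream class 53.4, 53.4 and 52.0, and the nearest downstream class had 46.2, 53.2 and 35.3 and the farthest downstream class 43.6, 43.6 and 46.6. Of the upstream members 72.2% lay within 500 bp of the start, compared with 38.1% of the downstream members, and the median distance was 332 bp upstream and 628 bp downstream.

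**Figure D1:**
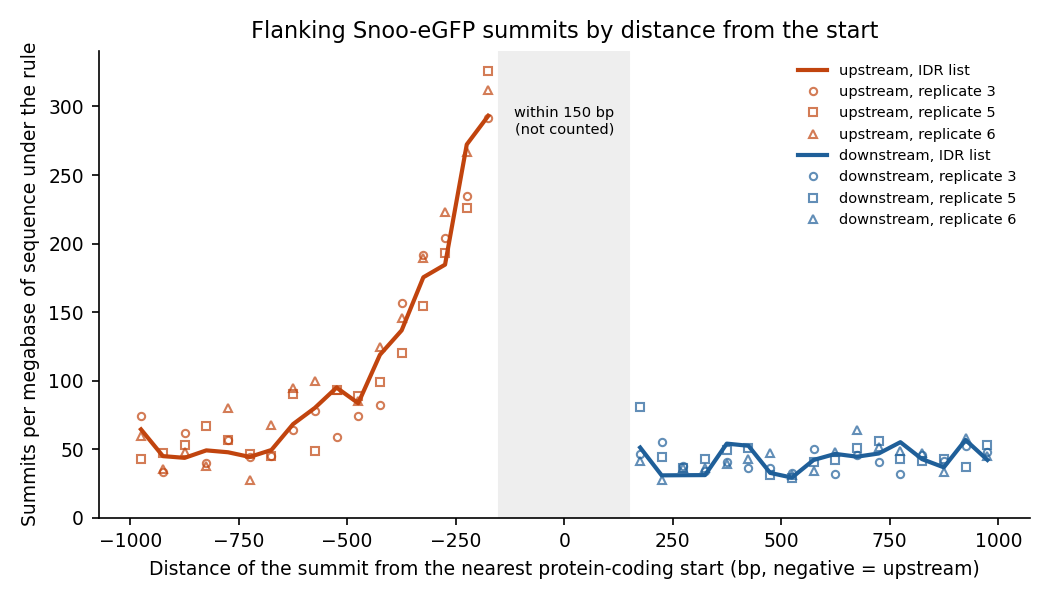
Summits per megabase of sequence under the distance rule (vertical axis) in 50-bp steps of distance from the nearest protein-coding start (horizontal axis, bp, upstream negative); lines are the reproducible (IDR) list and open symbols the strongest 6633 regions of replicates 3, 5 and 6. The upstream line falls from 293 per Mb next to the 150 bp bound to between 43.7 and 49.5 from 650 to 949 bp. It is higher again, at 64.5, in the last step. The downstream line stays between 29.4 and 56.8.

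The bounds of the range cut through a continuous distribution. Just inside the lower bound, in the 25 bp beyond 150 bp, there were 88 upstream and 15 downstream summits. In the 25 bp before it the counts were of the same size, a little over 100 upstream and 11 downstream. At the upper bound, the last 25 bp held 15 upstream and 10 downstream members, and the next 25 bp held 14 upstream and 6 downstream peaks. The upstream members nearest to the start were 7 peaks one base beyond the 150 bp bound, led by CG7896 (signal 404), jigr1 (231) and orion (217), and they included ptc (183), the Hedgehog receptor, and Psc (161), a Polycomb group protein. Just outside it, at 150 bp, were CG8034 (1294), oc (232) and nab (160). The farthest upstream members were shn (247) and CG11145 (190) at 997 bp, and the next peaks out were those of ex (592) and kek1 (149) at 1002 bp. Downstream, CG4496 (144) at 152 bp was the nearest member and Ncoa6 (449) at 996 bp the farthest.

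Upstream peaks were also the stronger ones, by a margin that varied between the lists. The signal is the authors' value per peak and was compared only within a list. Its median in the reproducible list was 268 upstream, 219 downstream, 210 within 150 bp of a start (192 with divergent pairs left out), 217 beyond 1000 bp and 222 over all peaks. Peaks in the same distance range at divergent pairs, which the rule left out, had a median of 256, near the upstream one. Among the strongest regions of the replicates the medians were 72.5 upstream and 65.6 downstream in replicate 3, 86.0 and 70.8 in replicate 5, and 118 and 97.6 in replicate 6. The upstream median was higher in 3 of 3 replicates, with log2 ratios of 0.14, 0.28 and 0.27 (mean 0.23 ± 0.0769, SD, n = 3; exact two-sided sign-flip p = 0.25), compared with 0.29 in the reproducible list. When 1 replicate was left out and the summits shared by the other 2 were compared, the log2 ratio was 0.058 without replicate 5 and 0.057 without replicate 6, both on the signal of replicate 3, and 0.26 without replicate 3, on the signal of replicate 5. The size of this difference thus depended on which replicates were used. Peaks above a signal of 1000 numbered 63 upstream (6.30%) and 15 downstream (3.28%), of 231 in the whole list (3.48%). In the same distance range at divergent pairs, 13 peaks (6.95%) were above it.

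**Figure D2:**
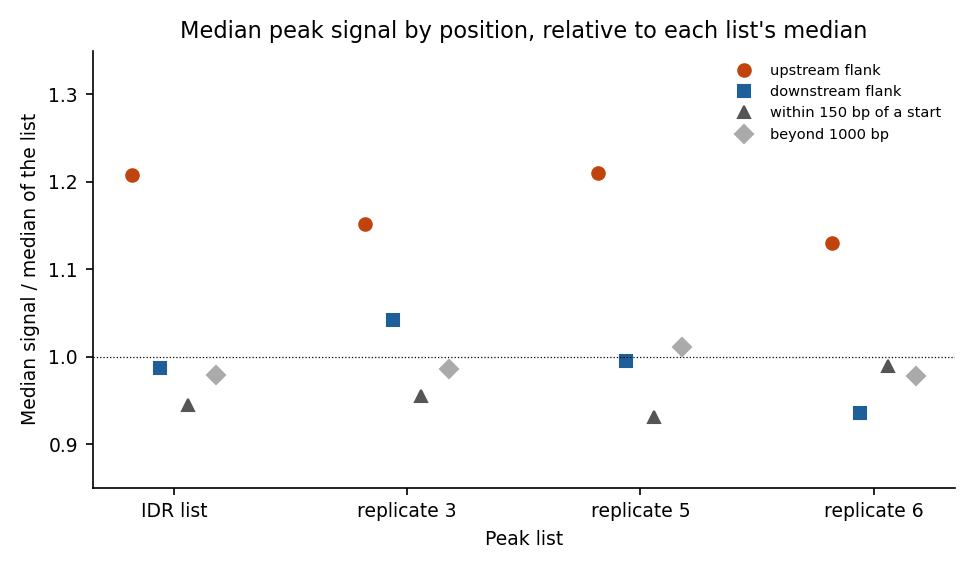
Median peak signal (symbols) of upstream flank and downstream flank peaks, peaks within 150 bp of a start and peaks beyond 1000 bp. Each is divided by the median of the whole list (vertical axis), in the reproducible list and in the strongest 6633 regions of each replicate (horizontal axis). The upstream symbol is the highest in all 4 lists. The downstream symbol lies near 1 in the reproducible list and replicate 5 and above 1 in replicate 3. In replicate 6 it lies below 1 and is the lowest symbol.

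The signal by distance differed between the sides. Upstream medians were 276, 271, 245 and 247 in the 4 distance classes going away from the start, and downstream medians were 189, 219, 228 and 224. The weakest class was therefore the downstream one nearest to the start. Because the reproducible peaks are the 6633 strongest pooled candidates, the share of candidates kept is another view of the same signal and adds no separate evidence. In that view, the downstream class nearest to the start was again the lowest: of its 525 pooled candidate regions 13.1% were in the reproducible list, against 40.0% of 1094 in the nearest upstream class. Over the whole range, 31.4% of 3181 upstream candidates (exact 95% interval 29.8 to 33.1) and 18.4% of 2485 downstream candidates (16.9 to 20.0) were in the reproducible list. The background over all 30000 pooled candidates was 22.1%, so the upstream share was above it and the downstream share below it. The share was 17.9% for regions beyond 1000 bp. Within 150 bp of a start it was 42.0% at divergent pairs and 28.3% for the other regions.

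Upstream members were found again in all 3 replicates somewhat more often, but not in each replicate taken alone. An upstream summit had a match within 150 bp among the strongest 6633 regions of all 3 replicates in 618 of 1000 cases (61.8%, exact 95% interval 58.7 to 64.8), and a downstream summit in 249 of 457 (54.5%, 49.8 to 59.1), so the intervals overlapped slightly. The background over all reproducible peaks was 55.5%, so the downstream share was near background. The share was 62.0% for peaks in the same distance range at divergent pairs, so the upstream share did not stand apart from theirs. By replicate, the shares matched were 78.7% upstream and 72.2% downstream in replicate 3, 81.4% and 81.6% in replicate 5, and 87.8% and 83.6% in replicate 6. Upstream members also had higher signal, and more of them had another summit within 300 bp (21.4% against 13.8%). The part of either in these shares was not tested. Only 9 upstream and 4 downstream members had no match in any replicate's strongest regions. Among members with a summit within 150 bp in a replicate's full candidate list, the median distance to it ranged from 16 to 21 bp on both sides. Larger distances could not appear under this match rule. In replicates 3, 5 and 6, 73, 47 and 29 members had no such match.

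The members with the highest signal were of several kinds. The strongest upstream member, at chr3R:11760789-11761456, lay 978 bp from a start of Lk6, a kinase of the translation initiation factor eIF4E, with a signal of 2932. Its signal was 624, 906 and 1406 in replicates 3, 5 and 6, each on that replicate's own scale, which put it at ranks 12, 7 and 10. After CG1888 (2889, 5' untranslated) came larp (2698), an RNA-binding regulator of translation, CG31145 (2451), CG4496 (2166), the high-mobility-group protein gene HmgZ (2062) and gish (1979), which encodes casein kinase 1 gamma. The list went on with Lpin (1921), a phosphatidate phosphatase of fat synthesis, Gapdh2 (1907), an enzyme of glycolysis, ph-p (1903), a subunit of Polycomb repressive complex 1, the shared start region of CG46429 and Sesn (1792), where Sesn is a brake on TOR, and px (1728). Each of these 12 was among the strongest 150 regions of every replicate; the lowest rank was 141, for ph-p in replicate 3.

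Downstream, CG9663 had both the first and the fifth strongest member, with signals of 2151 and 1535 in the same peak interval, 235 bp apart. Between them stood LPCAT (2124), a phospholipid acyltransferase, CG3408 (1625) and Cat (1541), which encodes catalase. Mhcl (1490), a myosin-like protein, yip2 (1264), Akt (1230), the kinase at the centre of insulin signalling, CG42327 (1225), the apical polarity gene crb (1213), the importin alpha gene Pen (1213) and CG31612 (1199) followed. All 12 summits were intronic. Some of them differed in rank between replicates: CG3408 ranked 9, 66 and 280 in replicates 3, 5 and 6, Cat 24, 39 and 293, yip2 32, 100 and 321, and Akt 47, 121 and 307. The signal of CG3408 in those lists was 650, 493 and 455, and that of Cat was 487, 609 and 448, while the median of each list was 62.9, 71.1 and 104. By rank, these 4 peaks stood highest in replicate 3 and lowest in replicate 6. LPCAT ran the other way, at ranks 95, 35 and 26.

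Summits were rare in coding sequence on both sides. Upstream, 492 of 1000 (49.2%) were intronic and 439 (43.9%) intergenic, 21 were in 5' untranslated sequence of another transcript, and none was in coding sequence. Downstream, 341 of 457 (74.6%) were intronic, 89 (19.5%) in 5' untranslated sequence and 13 (2.84%) in coding sequence. Per Mb of sequence of each kind under the rule, upstream introns held 191 summits, upstream intergenic sequence 119 and upstream coding sequence none in 1.11 Mb. Downstream introns held 93.7, 5' untranslated sequence 74.4 and coding sequence 2.58 per Mb. Ensembl annotates several starts for many genes, so an upstream summit could still lie within the gene itself. This was so for 44.1% of upstream members, while 9.0% lay in another coding gene and 46.9% in none. Downstream, 97.6% lay in the gene whose start was nearest.

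**Figure D3:**
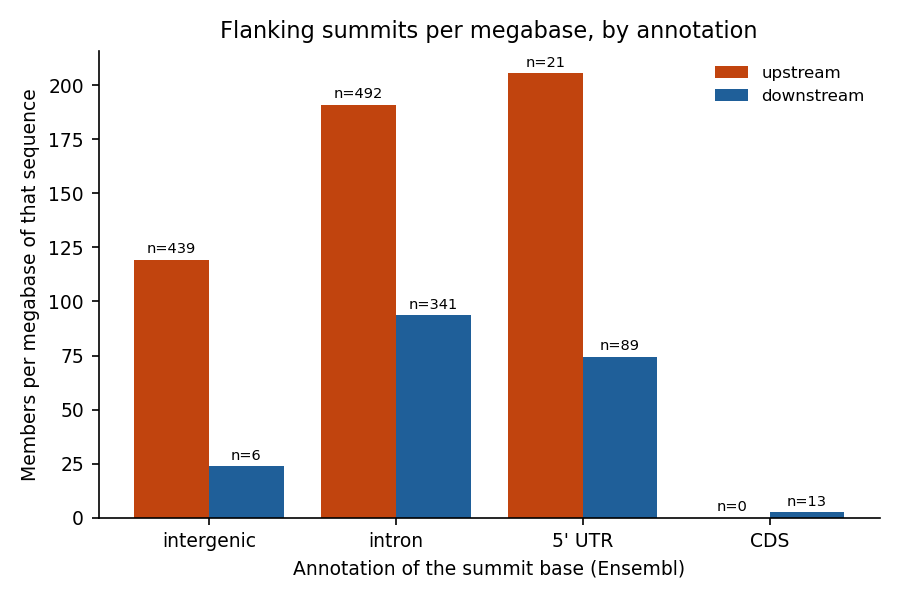
Flanking summits per megabase of each kind of sequence under the distance rule (vertical axis) by annotation of the summit base (horizontal axis), with the number of members above each bar; upstream bars stand left of downstream bars. Upstream bars are higher for intergenic, intronic and 5' untranslated sequence, and coding sequence is near 0 on both sides.

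Genes with flanking peaks were longer than other genes at the median, and most had several starts. The median gene length was 8422 bp for genes with an upstream member and 8688 bp for genes with a downstream member, against 3431 bp for genes with a peak within 150 bp of a start and 2164 bp for all 13968 coding genes. Of the members, 67.1% upstream and 67.6% downstream had their nearest start in a gene with more than 1 start, against 54.0% of all reproducible peaks and 47.5% of all coding starts. The nearest start was not the outermost one of its gene in 44.0% of upstream and 44.4% of downstream members, against 28.9% of all coding starts. The rule left out peaks within 1000 bp of both starts of a divergent pair, whereas these backgrounds included them. In the same distance range at divergent pairs, the 2 shares were 44.9% and 20.3%. For peaks within 150 bp of a start, pairs left out, they were 57.0% and 30.5%. A peak within 150 bp of the same start accompanied 7.4% of upstream, 13.8% of downstream and 16.1% of more distant peaks. Counted over starts, 7.52% of those with an upstream member and 13.9% of those with a downstream member had such a peak. The share was 10.5% of all coding starts, those of divergent pairs included. Upstream summits more often had a second summit nearby. Another reproducible summit lay within 300 bp of 21.4% of upstream, 13.8% of downstream and 14.2% of all peaks.

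In all, 818 genes had an upstream member, which is 5.86% of coding genes, and 416 had a downstream member, which is 2.98%. The 29 members equally near to starts of 2 genes were counted for both. Both kinds occurred in 107 genes, or 13.1% of the upstream and 25.7% of the downstream genes. Those 107 genes had a median length of 17504 bp and a median of 3 starts. The share with a member went up with gene length: it was 1.88% upstream and 0.490% downstream in genes under 2 kb, and 19.2% upstream and 9.72% downstream in genes of 10 kb and over. A peak within 150 bp of one of its starts was found in 19.1% of the upstream and 23.1% of the downstream genes, against 11.4% of all coding genes. However, 61.4% and 66.8% of these genes had several starts, against 26.5% of all coding genes. Of the starts beside members, 7.52% upstream and 13.9% downstream had such a peak, against 10.5% of all coding starts. The part of the number of starts was not tested. CG43658 (5 upstream), Mhcl (3 upstream, 2 downstream) and spi (4 upstream, 1 downstream) had the most members.

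At 50 starts a summit lay on either side of the same start. The upstream one had the higher signal at 35 of them, and the median span between the summits was 1076 bp. A peak within 150 bp of the start was also present at 3 of the 50 (6.00%), against 10.5% of all coding starts, divergent pairs included. At cbt, a zinc-finger regulator known from work on TGF-beta signalling, the summits lay 370 bp upstream (signal 913) and 548 bp downstream (651). At CG31635 the signals were 648 upstream and 641 downstream, at sgg, the GSK3 kinase of Wnt signalling, 1318 and 483, and at bin3 988 and 370. Upstream and downstream signal were close at CG31635 and far apart at sgg and bin3.

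To ask which pathways the flanking peaks sat beside, 16 gene lists were counted against the 5.86% and 2.98% of all coding genes. The TGF-beta and BMP list covers the pathway Ski/Sno proteins are best known for. Of its 31 genes 7 had an upstream and 4 a downstream member. The ligand gene daw had an upstream signal of 218 and the ligand gene myo a downstream one of 215. The type II receptor gene wit had 397 downstream. Of the Smads, Mad had 175 and the inhibitory Dad 163, both upstream. Among nuclear cofactors and targets, the acetyltransferase gene nej had 695 upstream and 144 downstream, the zinc-finger gene shn 247 and 182, and the repressor gene brk 591 upstream. The secreted BMP modulator gene magu had 824 upstream, the highest of the list. Its rank was 173, 558 and 482 in replicates 3, 5 and 6, whereas brk ranked 3309, 821 and 467.

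The lists with the largest upstream shares were EGFR and Ras signalling, with 9 upstream and 6 downstream of 25 genes, Notch signalling, with 8 and 2 of 24, and the ecdysone response, with 9 and 1 of 27. In the EGFR list the ligand gene spi (788 upstream, 133 downstream), the kinase gene Raf (346 and 804), the GTPase-activating protein gene RasGAP1 (632 upstream), the secreted inhibitor gene aos (422 upstream) and the transcription factor genes pnt (366 upstream) and aop (183 and 365) had members. The others were cic (389 and 291), edl (307 upstream), sty (214 upstream), csw (354 downstream) and rho (147 downstream). The Notch list included numb (1051 upstream, 144 downstream), an inhibitor of the receptor, fng (828 upstream), which modifies it, and target genes of the E(spl) complex, E(spl)m3-HLH with 799, E(spl)m7-HLH with 584 and E(spl)mbeta-HLH with 187 upstream. Its other members were neur (485), mam (411) and Nedd4 (166) upstream and the protease gene kuz (140) downstream. In the ecdysone list, the hormone-induced transporter gene E23 (1441) and the metabolic enzyme gene Ldh (1139) led, followed by the early genes br (388), Eip75B (290 upstream, 239 downstream) and Eip74EF (268) and the receptor gene EcR (184). Eip63E (269), Blimp-1 (221) and tai (187) had upstream members too. The br summit was found in 2 of 3 replicates, at ranks 601 and 1808 in replicates 5 and 6 and only 16358 in replicate 3.

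Insulin and TOR signalling had 5 upstream and 5 downstream of 21 genes, led by Lk6 (2932), Sesn (1792) and Akt (1230 downstream), with the receptor gene InR at 180 upstream and 198 downstream and the transcription factor gene foxo at 262 upstream. The cell cycle list had 5 and 2 of 24, among them Dp (768 upstream, 288 downstream), stg (497 downstream) and CycE (480 upstream). The Polycomb and trithorax list had 5 and 3 of 28, and ph-p (1903 upstream, 1140 downstream) and its neighbour copy ph-d (604 upstream) were its highest. The ph genes are near-identical copies between which reads can be misplaced, so their values are uncertain. Muscle structure had 5 and 0 of 24 (led by Msp300 at 1030, Zasp52 at 559 and Tm1 at 351). Smaller counts were found for the Hippo pathway (3 and 0 of 17, led by the cadherin gene ds at 1176), heat shock (3 and 0 of 15, led by Hsp67Ba at 371), cell death and autophagy (3 and 2 of 27, led by hid at 827), Wnt signalling (2 and 2 of 24, led by gish at 1979) and neuronal function (2 and 2 of 24, led by elav at 1152).

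At the other end, cuticle proteins had 4 upstream and 1 downstream of 121 genes, chemosensory receptors had 1 and 0 of 179 (Ir94h, 500), and cytoplasmic ribosomal proteins had 0 and 0 of 93, although 76 of those 93 had a peak within 150 bp of a start. Gene length also differed between the lists. The median length was 21112 bp in the ecdysone list and 13265 bp in the EGFR list, against 1318 bp for ribosomal, 957 bp for cuticle and 1691 bp for chemosensory genes. It was not high in every list with a large share, since Notch genes had a median of 4212 bp, nor was the share high in every list of long genes, since neuronal genes had 27248 bp. The part of gene length in the list counts was not tested.

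**Figure D4:**
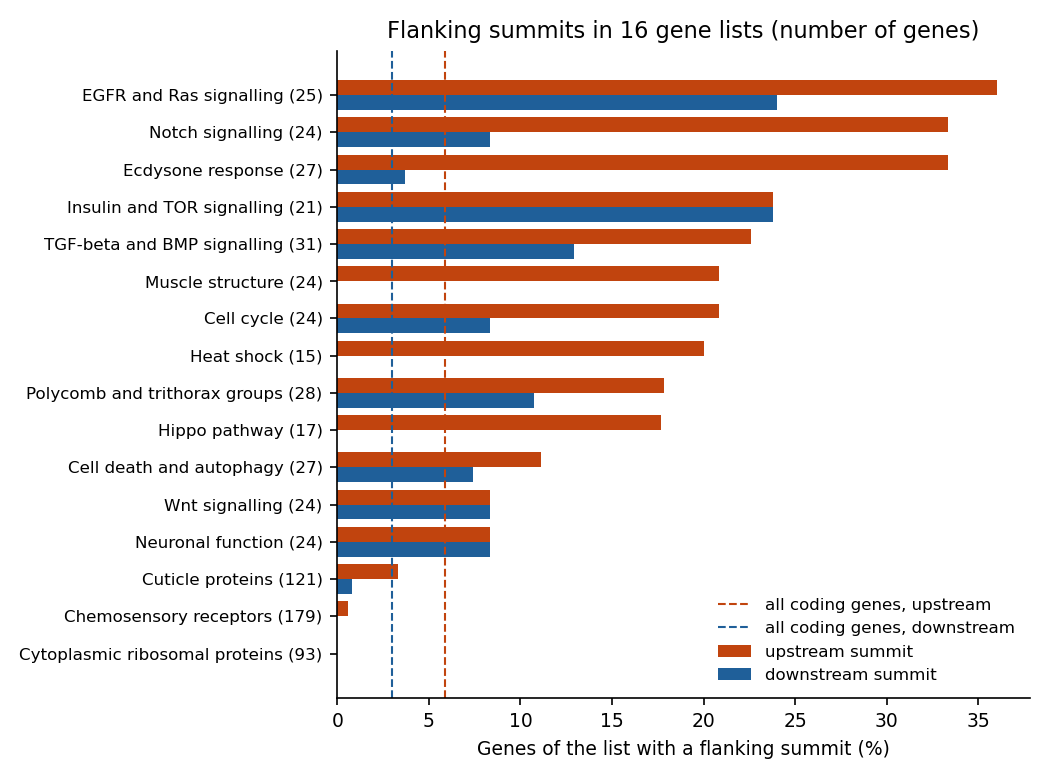
Share of the genes of each list with an upstream (upper bar) or downstream (lower bar) flanking summit (horizontal axis, %); dashed lines are the shares over all coding genes, 5.86% upstream and 2.98% downstream, and the number of genes stands in brackets. EGFR and Ras signalling is highest at 36.0% upstream, and ribosomal protein genes have no bar.

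The sequence around the summits was searched for 16 motifs, on both strands and in the 100 bp to either side of the summit. It was set beside all tiles of the same length whose centre met the same rule (42879 upstream, 53035 downstream). The tiles included coding sequence, 1.11 Mb of the upstream and 5.05 Mb of the downstream flank, where 0 upstream and 13 downstream members lay. Its part in the motif comparisons with tiles was not tested. The GAGA motif (GAGAGAG) was in 8.70% of upstream and 10.3% of downstream members, against 3.46% and 2.30% of tiles. The exact 95% intervals, 7.03 to 10.6 upstream and 7.65 to 13.4 downstream, both lay above the tile shares. Peaks within 150 bp of a start, divergent pairs left out, had the motif in 10.1% of windows, so the flanks did not stand apart from them. The CA repeat (CACACACA) was in 10.3% of downstream members, against 4.07% of tiles, and in 4.40% of upstream members, against 3.59%. TATAAA was in 35.0% upstream and 28.7% downstream, against 26.9% and 17.0% of tiles. TGATAA, which transcription factors of the GATA family read, was in 18.0% and 16.0%, against 15.1% and 11.5%. Peaks beyond 1000 bp had TATAAA in 33.8% and TGATAA in 16.0% of windows, so neither motif was particular to the flanks. Base composition moved with these shares: the median GC content was 34.8% upstream and 37.3% downstream, against 39.3% and 45.8% in the tiles, and its part in them was not tested. With windows of 50 and 150 bp to either side, the GAGA share was 2.0 and 3.12 times that of the tiles upstream and 3.93 and 4.70 times downstream, and the downstream CA repeat share 1.98 and 2.75 times. The upstream CA repeat had no stable direction, at 0.832 times the tiles with 50 bp and 1.49 times with 150 bp. Matches are letters in a window and do not show that a factor was bound there.

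The motifs that mark housekeeping promoters in flies were rare in the flanks. TATCGATA, the DNA replication-related element, was in 0.300% of upstream and 0.656% of downstream members, and GGTCACAC, called motif 1, in 0.600% and 0.438%. Among peaks within 150 bp of a start the shares were 7.90% and 6.17% with divergent pairs included and 4.60% and 5.22% without them, as the flanks were counted. In the flank tiles they were 0.728% upstream and 0.285% downstream for the first and 0.385% and 0.311% for the second, so members were near that background in the 100 bp window. CGATA, read by BEAF-32 and contained in the first of these motifs, was in 21.4% of upstream and 21.4% of downstream members, against 22.4% and 21.9% of tiles and, with pairs left out, 32.6% of peaks within 150 bp of a start. The Smad motif CAGAC was in 19.2% upstream and 17.9% downstream, against 21.1% and 23.8% of tiles. The Brinker motif GGCGCC was in 3.60% upstream and 1.09% downstream, against 2.97% and 4.33%. With windows of 50 and 150 bp to either side, the Smad share was 1.01 and 0.951 times that of the tiles upstream and 0.608 and 0.830 times downstream, and the Brinker share was 1.52 and 1.16 times upstream and 0.096 and 0.311 times downstream. The upstream CGATA share was 1.01 and 0.959 times its tiles, so neither it nor the upstream Smad share kept one direction. These tiles too included coding sequence and differed from members in GC content, and the part of either was not tested.

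The starts that the members stood beside differed from other starts as well. The GAGA motif was searched in the 100 bp to either side of the start itself. It was in 14.8% of the 904 starts with an upstream member and 10.9% of the 433 starts with a downstream member. It was in 4.68% of all coding starts and 10.1% of starts with a summit within 150 bp, divergent pairs left out. TATCGATA was in 1.55% of the upstream members' starts and 4.85% of the downstream members' starts. Its share was 6.44% of all starts and 6.88% of the starts with a summit within 150 bp, divergent pairs left out. Motif 1 was in 2.43% and 9.47%, against 5.68% and 7.38%. Starts of upstream members thus had fewer of these 2 motifs than all starts, whereas starts of downstream members were above all starts for motif 1. All starts included those of divergent pairs, where the rule left out peaks within 1000 bp of both starts. For starts with a summit within 150 bp, the shares with pairs included were 10.2% for TATCGATA and 8.86% for motif 1. Where the summit was more than 200 bp away, so that the start's window and the summit's window did not overlap, the GAGA share was 14.5% upstream and 11.4% downstream.

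**Figure D5:**
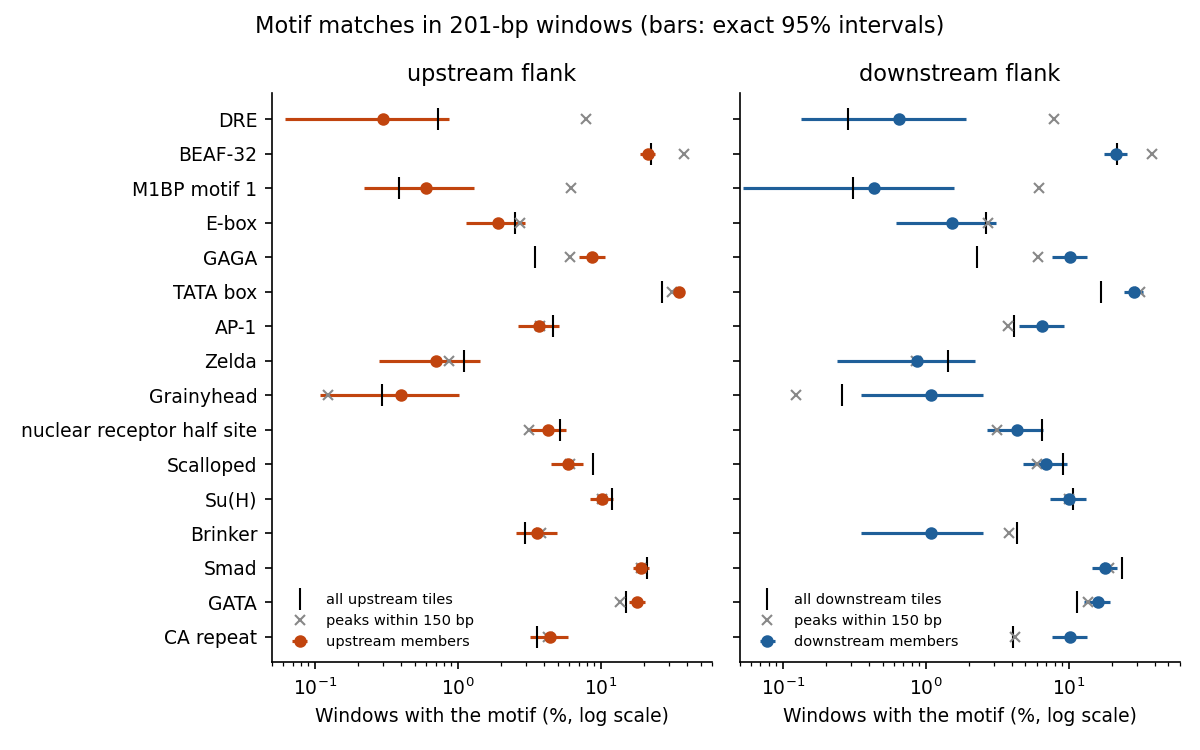
Share of windows 100 bp to either side of the summit that hold each of 16 motifs (horizontal axis, %, log scale) in upstream members (left) and downstream members (right); bars are exact 95% intervals for counting error, vertical ticks the tiles of the same flank and crosses the peaks within 150 bp of a start, divergent pairs included. The GAGA motif lies to the right of its tick on both sides, at 8.70% upstream and 10.3% downstream.

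By chromosome arm, the X was the densest, with 147 upstream and 57.5 downstream members per Mb, against at most 118 upstream and 41.5 downstream on 2L, 2R, 3L and 3R. Flanking peaks made up 27.8% of the peaks on the X and 18.6 to 22.5% of those on these autosomal arms. The upstream share was alike, at 67.5% on the X and 66.1 to 71.0% on the autosomal arms. Chromosome 4 had 5 upstream members and 1 downstream member, and the Y had none.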

How the data were processed

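Per the deposited file listings, candidate regions came from each replicate's alignment and from the pooled alignments of the 3 replicates, each against a control alignment, and the final list holds the regions kept by an irreproducible discovery rate (IDR) step. The names of the aligner and the peak caller, and the IDR threshold, were not stated in these sources. Values are the signal per peak deposited by the authors, comparable only within 1 list. Each candidate list holds 30000 regions, and the 6633 peaks of the final list are the 6633 strongest pooled candidates. The replicate lists shared 0 identical rows.

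Summits were assigned to the nearest of 19276 starts of 13968 coding genes (Ensembl release 115, BDGP6.54, dm6). Densities divide by all bases that meet the same rule. Motifs were exact letter matches in the RefSeq genome. Intervals are exact binomial (Clopper-Pearson, 95%). The functions were tested on simulated data. Software was Python 3.11.15, numpy 2.4.6, scipy 1.17.1, pandas 2.3.3 and matplotlib 3.10.9.

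The members, the gene lists, the motifs and the tests were chosen with earlier results of these data known. Named peaks are the 12 strongest on each side, the 5 starts with summits on both sides and the highest lower signal (1 of these is not reported here), those nearest to each bound, and up to 3 genes per list. Other genes of the pathway lists were named after their values were seen. Of the list symbols 5 were matched through synonyms and 2 were not matched. The older-build lists were not used. With 1 group there was no comparison between conditions. Alternatives were other bounds, start sets, replicate matches, left-out replicates, kinds of sequence, and motif windows of 50 and 150 bp to either side of the summit.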

Additional observations from a re-analysis of the deposited data

How the results depend on the processing

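No paired analysis was possible because the series has only 1 group. Upstream density and signal were higher than downstream under every alternative run for them. The number of members was 896 with an upper bound of 500 bp, 824 in the stronger part of the list (3316 peaks), 867 for summits found in all 3 replicates, 477 in genes with a single start and 833 in introns only; the last 2 settings, and the one without coding sequence, were chosen after seeing the data. The share upstream and the density ratio were 70.8% and 2.96 with a lower bound 50 bp nearer, 65.9% and 2.42 with one 50 bp farther, 80.6% and 4.49 with an upper bound of 500 bp, 59.3% and 1.78 with one start per gene, 65.4% and 2.28 with noncoding starts, 72.6% and 3.27 in the stronger part, 71.3% and 3.07 for summits in all 3 replicates, and 59.1% and 2.04 in introns. The ratio was 3.13 with divergent pairs kept and 1.68 without coding sequence. Leaving out a replicate gave 70.4 to 71.2% upstream, ratios of 2.94 to 3.06, log2 signal ratios of 0.057 to 0.26 and 271 to 307 downstream genes. The log2 signal ratio was 0.47 with an upper bound of 500 bp. Upstream genes numbered 523 in the stronger part, and downstream genes 169 with an upper bound of 500 bp, 214 in the stronger part and 239 for summits in all 3 replicates. The share found in all 3 replicates was 41.5% upstream and 39.6% downstream with matches within 50 bp, 69.7% and 60.6% within 300 bp, 68.8% and 61.1% by overlap, and 77.0% and 73.7% among the strongest 10000 regions. The causes were not tested, except that narrower settings hold fewer summits by construction. Depth is unknown, and weak binding below the lists was not analysed here.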
